A study of Mus musculus with 35 samples.

Results

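The regions described here are 347 autosomal stretches of chromatin that were open in endothelial cells (EC) and in hemogenic endothelium (HE) of the mouse embryo at embryonic day E9.5 and less open in both at E10.5. They were picked by their read counts from an ATAC-seq table of 76018 peaks, of which 73975 lie on autosomes. Counts were divided by the total of each library and are given as CPM, a scale on which all libraries have the same sum, and libraries of a group were averaged. A peak was taken when E9.5 EC and E9.5 HE both had at least 8 CPM and when the E9.5 mean was at least 2 times the E10.5 mean in EC and again in HE. The minimum at E9.5 was met by 19498 autosomal peaks, so the lost regions are 1.78% of them. The other 19151 peaks that met the minimum serve below for comparison. They are called the set of like E9.5 level, although they share only that minimum. Their median in E9.5 HE was 24.3 CPM, against 15.1 CPM in the lost regions. In E9.5 EC it was 25.2 CPM, against 22.5 CPM. Shares and calls in the 2 sets therefore rest on different counts. The rule turned round, with at least 8 CPM at E10.5 and at least 2 times the E9.5 mean in EC and in HE, was met by 206 of 19316 peaks.

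All 9 groups came from embryos whose genotype is labelled 23GFP transgenic, and the labels give no more on the transgene or on the sort. A library, of which there are 35, holds 1500 sorted cells. The E10.5 groups are EC, HE, pre-HSC I and pre-HSC II, with 4 libraries each, from tissue labelled AGM+VU. The E9.5 groups are EC and HE with 4 libraries each and pro-HSC/HPC with 3, where HPC stands for hematopoietic progenitor cell and HSC for hematopoietic stem cell. The E8.5 groups are EC and HE, with 4 libraries each. The E8.5 and E9.5 samples carry the same tissue label, E8.5 PAS+VU, and the day of the E9.5 samples was taken from their titles. As labelled, the dissected tissue therefore changes between E9.5 and E10.5 together with the day, and the effects of day and tissue cannot be told apart. Whether pools of a group came from separate litters is not labelled, so that p-values cover the spread of these samples, which may in part be technical.

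In the endothelial-to-hematopoietic transition, a subset of the endothelial cells lining the large embryonic arteries becomes hemogenic, loses its endothelial character and gives rise to blood progenitors and to the precursors of hematopoietic stem cells. Cells of this path are grouped by stage, with hemogenic endothelium before pro-HSC, pre-HSC I and pre-HSC II. ATAC-seq reads open chromatin with a transposase that cuts where DNA is accessible, and open regions away from promoters often act as enhancers, which open and close as cells change identity. In a pool of cells, fewer cells with an open region and a less open region in each cell cannot be told apart. Positions are given on build mm9 as the deposited table writes them, and whether its first base is 0 or 1 is not stated. Genes at these positions and marker genes of the sorted populations were not analysed here.

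Library totals ran from 456770 counts in pre-HSC II library 1 to 7415315 counts in E9.5 HE library 1. The 4 pre-HSC II libraries were shallow, at 456770 to 1241216 counts, so that 8 CPM stood for 3.65 to 9.93 counts there, against 8.81 to 29.5 counts in E10.5 HE and 14.7 to 59.3 counts in E9.5 HE. Pre-HSC I libraries 2 and 3 were nearly identical and differed by less than the sampling noise, with a chi-square per degree of freedom of 0.461 against 2.59 to 8.04 in the other 50 pairs within groups, and were counted as 1 sample. Of the 16 libraries that the rule used, 5 stood apart. E9.5 EC libraries 3 and 4 and E9.5 HE library 4 had 2289 to 5527 CPM at a single peak of chromosome X, against 109 to 981 CPM in the other 32 libraries, and E10.5 HE libraries 1 and 4 were shallow, at 1215458 and 1101787 counts. Without those 3 E9.5 libraries the rule found 497 regions, of which 288 were among the 347, and without those 2 E10.5 libraries it found 297, of which 236 were among the 347.

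The E9.5 and E10.5 values of EC and HE chose the regions. Wherever they are set side by side, for all regions or for single ones, they are a description with no test. The same holds where another group is set beside them, since the rule favours low values at E10.5. Between E9.5 and E10.5 the lost regions declined at least 2-fold in both populations, as the rule demands. Of the 19498 autosomal peaks with the E9.5 level, 1368 met the 2-fold threshold in HE and 621 in EC. The E9.5 over E10.5 ratio of mean CPM had a median of 2.59 in HE and 2.35 in EC, and the smaller of both ratios had a median of 2.23, with a range of 2.00 to 5.43. In E10.5 HE the median over the 347 regions was 3.29, 7.38, 5.42 and 5.45 CPM in libraries 1 to 4, against 15.5, 18.004, 15.2 and 12.5 CPM in E9.5 HE. In E10.5 EC it was 7.56, 11.4, 7.94 and 9.67 CPM, against 24.2, 23.5, 23.9 and 20.8 CPM in E9.5 EC. No library of either day reached into the range of the other day, and E10.5 HE library 1 was the lowest of all. The set of like E9.5 level had medians of 23.0 to 24.7 CPM in the E10.5 HE libraries and 23.6 to 25.4 CPM in the E9.5 HE libraries.

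**Figure D1:**
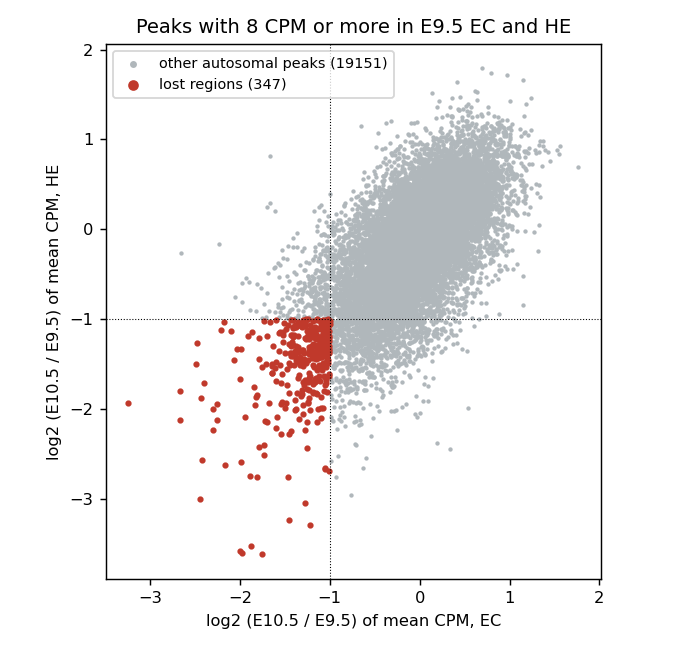
Ratio of mean CPM at E10.5 to that at E9.5, on log2 axes, in EC (horizontal) and in HE (vertical) for every autosomal peak with 8 CPM or more in E9.5 EC and HE; dotted lines mark the 2-fold thresholds. The 347 lost regions (red) fill the lower left corner by construction. Among the 19151 other peaks (grey), the E9.5 over E10.5 ratio had a median of 1.03 in HE and 0.989 in EC. Its 90th percentile was 1.74 in HE and 1.47 in EC.

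The regions differed in how much signal was left at E10.5. The E10.5 mean was still at or above 8 CPM in HE at 103 of the 347, in EC at 204 and in both at 97. It was under 8 CPM in both at 137, and under 4 CPM in both at 20. The ranges of the 4 libraries of each day did not overlap in HE at 229 regions and in EC at 280, where the background over all 76018 peaks, lower at E10.5 without overlap, was 4.28% in HE and 3.98% in EC. In both populations together this held at 195 regions, with a background of 0.888%. The rule used these contrasts. HE lay below EC at 293 of the 347 regions at E10.5 (84.4%, against 53.2% in the set of like level) and at 280 at E9.5 (80.7%, against 48.5%). At E9.5 the HE mean was at least 2 times the EC mean at 4 regions, and the EC mean at least 2 times the HE mean at 76.

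The 6 regions with the largest smaller ratio of E9.5 to E10.5 were chr5:67307099-67308025, chr8:8037807-8038475, chr5:98306971-98307966, chr15:25485594-25486310, chr10:90703050-90703910 and chr1:71982882-71983946. They were 668 to 1064 bp wide. The first, chr5:67307099-67308025, had 1.65, 1.93, 1.08 and 0 CPM in E10.5 HE, against 10.8, 7.50, 11.96 and 6.95 CPM in E9.5 HE. In EC it had 0.945, 4.65, 1.40 and 4.42 CPM at E10.5, against 14.97, 15.8, 13.7 and 17.6 CPM at E9.5. The 2 days did not overlap in either population, and the E9.5 over E10.5 ratio was 7.99 in HE and 5.43 in EC. This region was higher still at E8.5, with 18.7 ± 2.81 CPM in HE and 28.1 ± 1.43 CPM in EC (SD, n = 4 each).

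Region chr8:8037807-8038475 had 1.65, 2.25, 1.90 and 3.63 CPM in E10.5 HE, against 15.6, 14.1, 20.7 and 5.22 CPM in E9.5 HE. In EC it had 5.67, 6.89, 4.67 and 8.29 CPM at E10.5, against 26.8, 30.1, 41.0 and 38.4 CPM at E9.5. Its E8.5 values of 3.98 to 25.7 CPM over both populations lay below all of its E9.5 EC values, where it was most open. Region chr5:98306971-98307966 had 3.29, 5.78, 1.08 and 11.8 CPM in E10.5 HE, against 26.6, 30.6, 26.1 and 20.2 CPM in E9.5 HE. Its EC values were 9.45, 8.94, 8.41 and 3.87 CPM at E10.5, against 38.6, 29.1, 53.0 and 30.2 CPM at E9.5. At E8.5 it had 74.7, 77.2, 43.7 and 38.7 CPM in HE and 36.9, 57.8, 24.8 and 37.7 CPM in EC. In HE, each day lay below the day before it without overlap of libraries.

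At the remaining 3 of the 6, the E9.5 over E10.5 ratios were 4.36 to 6.17 in HE and 4.47 to 6.36 in EC. Region chr1:71982882-71983946 had the largest EC ratio of the 3, with 5.34 ± 3.18 CPM in E10.5 EC and 34.0 ± 4.27 CPM in E9.5 EC (SD, n = 4 each). It was higher in pre-HSC II, at 21.9, 17.9, 8.56 and 11.3 CPM, than in any E10.5 HE library, at 1.65 to 7.06 CPM. The choice of regions favours low E10.5 HE values, so this carries no test. In several of these regions E10.5 values rest on few counts, since 1 count was 0.908 CPM in E10.5 HE library 4.

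**Figure D2:**
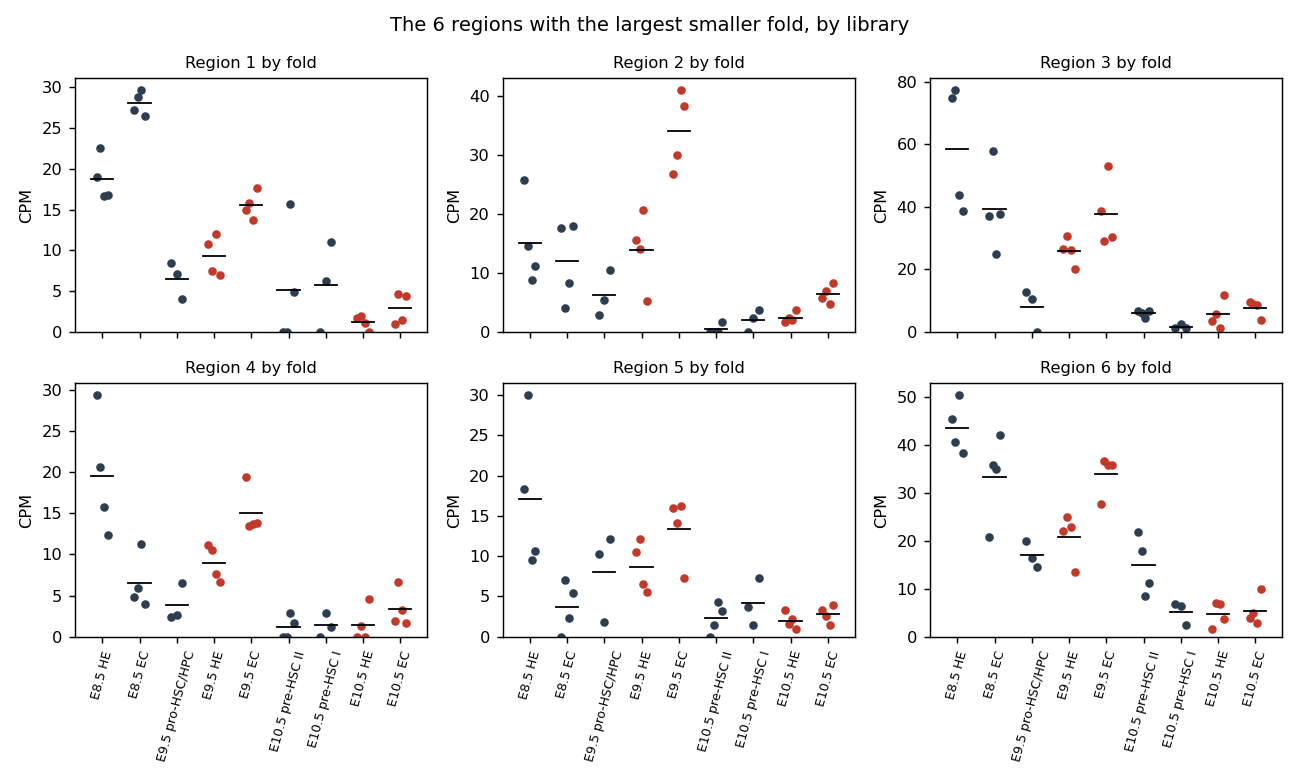
CPM by library in all 9 groups for the 6 regions with the largest smaller ratio of E9.5 to E10.5, in the order given in the text; points are libraries (pre-HSC I libraries 2 and 3 as their mean), bars are group means, and red marks the groups used to choose the regions. Region 1 is highest at E8.5, region 2 in E9.5 EC, and region 6 is higher in pre-HSC II than in E10.5 HE.

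The 6 regions with the highest E9.5 level declined by smaller ratios, of 2.02 to 3.25 in HE and 2.03 to 2.66 in EC. They were chr1:82969570-82971678, chr5:129047265-129048686, chr10:80001298-80002806, chr13:22025421-22029662, chr13:23503042-23505625 and chr17:57429230-57430936, and they were 1421 to 4241 bp wide. Region chr5:129047265-129048686, the highest of all 347 per kb of width with 104 CPM per kb over E9.5 EC and HE, had 6.58, 34.3, 41.5 and 30.0 CPM in E10.5 HE, against 85.2, 70.5, 74.5 and 69.2 CPM in E9.5 HE. In EC it had 51.0, 117, 94.1 and 77.3 CPM at E10.5, against 202, 175, 250 and 260 CPM at E9.5. HE was lower than EC on both days in every library here, while at E8.5 the groups overlapped, with 135 to 211 CPM in HE and 134 to 165 CPM in EC.

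Region chr17:57429230-57430936 had 14.8, 44.6, 52.3 and 27.2 CPM in E10.5 HE, against 122, 114, 99.5 and 116 CPM in E9.5 HE. Its pre-HSC II libraries had 78.8, 188, 120 and 95.1 CPM, and its pro-HSC/HPC libraries 189, 183 and 141 CPM. The region thus stood higher in each pre-HSC II library than in every E10.5 HE library, a description only, since the rule favours low E10.5 HE values. In pre-HSC I it had 59.4, 166, 160 and 43.3 CPM, where libraries 2 and 3, the near-identical ones, were the high ones.

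The thresholds cut through a continuous range of values. By the EC ratio, chr2:44381681-44382608 lay just inside at 2.003, with 10.0 ± 4.85 CPM in E10.5 EC and 20.1 ± 4.20 CPM in E9.5 EC, and chr9:95217043-95217849 just outside at 1.995, with 11.0 ± 2.88 and 21.9 ± 3.82 CPM in the same groups (SD, n = 4 each). By the HE ratio, chr1:194571209-194572755 lay just inside at 2.002 and chr14:64624869-64625876 just outside at 1.997. By level, chr3:60989525-60990531 lay inside with 8.06 CPM in E9.5 EC and chr15:88685926-88686498 outside with 7.93 CPM. In E9.5 HE, chr17:51547587-51548453 lay inside with 8.08 CPM and chr8:116047232-116047893 outside with 7.99 CPM. When each of the 16 libraries was left out in turn, 117 of the 347 regions met the rule every time, and the least stable of the others met it 7 times.

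At E8.5 most of the lost regions were already open. The mean was at least 8 CPM in both E8.5 populations at 314 of 347 regions (90.5%), close to the 91.1% of the set of like level. By library, the median over the regions was 28.2, 29.3, 24.4 and 24.2 CPM in E8.5 HE and 19.2, 21.9, 24.0 and 21.5 CPM in E8.5 EC. In HE the group means of these medians were 26.5 ± 2.58 CPM at E8.5, 15.3 ± 2.24 CPM at E9.5 and 5.38 ± 1.67 CPM at E10.5 (SD, n = 4 each), without overlap of libraries between days. In EC they were 21.7 ± 1.95, 23.1 ± 1.58 and 9.13 ± 1.75 CPM for the same 3 days (SD, n = 4 each), so that E8.5 and E9.5 overlapped.

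Thus the decline in HE was seen at both steps and that in EC at the later one. The mean fell short of the previous day's mean at each of both steps at 312 of 347 regions in HE (89.9%, against 26.6% in the set of like level) and at 143 in EC (41.2%, against 15.2%). Every lost region passes the later step by the rule, while the set of like level need not. These shares of the 2 sets are therefore not like measures. E9.5 values also entered the rule, so these counts carry no test. Both E8.5 means were at least 2 times the E9.5 means at 19 regions (5.48%, against 0.872%), and both E9.5 means were at least 2 times the E8.5 means at 0 regions (against 0.909%).

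**Figure D3:**
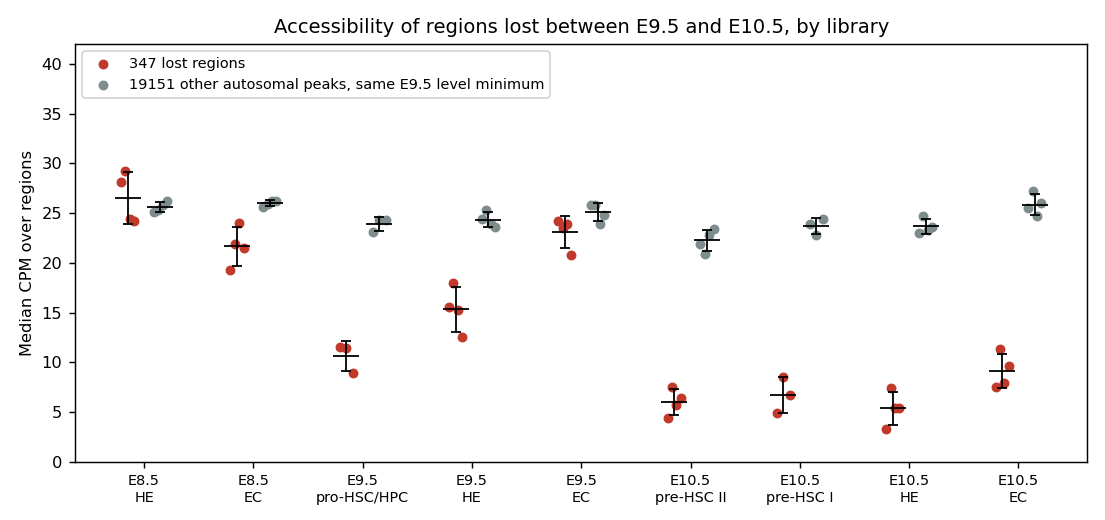
Median CPM over the 347 lost regions (red) and over the 19151 other autosomal peaks with the same E9.5 minimum (grey), 1 point per library (pre-HSC I library 3, near-identical to library 2, is not drawn), with group mean and SD. The lost regions stand near the other peaks at E8.5 and in E9.5 EC, lower in E9.5 HE and pro-HSC/HPC, and between 3.29 and 11.4 CPM in all E10.5 groups, while the other peaks stay between 20.9 and 27.2 CPM.

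Single regions took different routes. The highest ratios of E8.5 to E9.5 were 4.58 at chr19:36364953-36365933, 3.81 at chr5:105864074-105865123 and 3.68 at chr7:110115532-110116365. The first had 42.4 ± 6.19, 9.35 ± 2.80 and 2.86 ± 2.36 CPM in HE of E8.5, E9.5 and E10.5, and 47.7 ± 5.75, 10.4 ± 4.18 and 1.97 ± 2.12 CPM in EC of the same days (SD, n = 4 each). Its E9.5 means were still above the 8 CPM minimum in both populations. The lowest ratios were 0.332 at chr8:110758113-110758711, 0.368 at chr2:181205779-181206328 and 0.372 at chr6:71929984-71930636. The first of these had 6.32 ± 2.32, 40.3 ± 8.05 and 19.8 ± 5.35 CPM in EC of E8.5, E9.5 and E10.5 (SD, n = 4 each), open most in E9.5 EC, and 10.7 ± 2.171, 11.1 ± 3.04 and 5.41 ± 3.83 CPM in HE of the same days.

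HE was compared with EC at E8.5, a day that the rule did not use. The lost regions were shifted towards HE there, opposite to the later days. Of the 347 regions, which all passed the filter on low counts, 26 were higher in HE and 0 lower, against a background of 1.3% of all 67131 peaks tested higher and 0.131% lower (edgeR quasi-likelihood test, Benjamini-Hochberg adjusted p at 0.05). That is 7.49% of the lost regions, beside 2.97% of the set of like level. The median log2 fold change of HE over EC was 0.47 for the lost regions, 0.11 for the set of like level and 0.02 for all peaks tested (that of all peaks was 0.11 lower with total counts), and HE had the higher mean CPM at 271 regions (78.1%, against 50.0% in the set of like level). At 209 regions (60.2%, against 25.9%) HE was above EC at E8.5 and below it at E9.5. At E9.5 alone, HE was below EC at 80.7% of the lost regions, against 48.5%, and a link between the days at single regions was not tested. E9.5 values chose the regions, so the 209 are a description.

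The 4 regions with the smallest adjusted p were 825 to 1058 bp wide. Region chr10:57816976-57817978 had 26.9, 43.2, 21.6 and 41.2 CPM in E8.5 HE, against 9.62, 7.97, 6.38 and 5.74 CPM in E8.5 EC, and rose by 2.30 ± 0.35 on the log2 scale (SE, adjusted p = 4.91e-05 by edgeR). All 4 HE libraries lay above all 4 EC libraries, and the region remained called under all 17 alternatives, with an adjusted p of 1.28e-07 to 0.0279. Region chr11:7138882-7139940 stood highest of the 4, with 89.3, 94.5, 72.1 and 74.1 CPM in HE, against 16.03, 13.9, 25.5 and 30.1 CPM in EC (higher by 1.96 ± 0.36 on the log2 scale, SE, with an adjusted p of 0.000797 by edgeR). Regions chr2:125094318-125095146 and chr12:3392780-3393605 rose by 2.27 ± 0.38 and 2.18 ± 0.40 on the log2 scale (SE).

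The count varied with the libraries and fits used. Libraries 1 and 2 of both E8.5 populations were shallow, at 1004036 to 1634087 counts, against 2666067 to 5733154 counts in libraries 3 and 4. Without these 4 libraries, which leaves 2 per group, 1 region was called and the median log2 fold change was 0.24, and the 3 named regions other than chr10:57816976-57817978 lost their call. Leaving out 1 library gave 14, 15 and 17 regions without HE library 1, 2 or 3 and 11, 11 and 13 without EC library 1, 2 or 3. A fit of E8.5 EC and HE alone called 63 regions, and DESeq2 called 53. With every library thinned to the shallowest total of 456770 counts the fit called 9. No region was called lower under any of these settings. The share of all peaks called was computed for the main fit only, so these counts have no background beside them. HE medians of libraries 1 and 2, at 28.2 and 29.3 CPM, were above those of libraries 3 and 4, at 24.4 and 24.2 CPM, and the part of depth in the difference and in the counts was not tested.

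Pre-HSC I of E10.5 was compared with pro-HSC/HPC of E9.5 to follow the same days in populations that the rule did not use. Population, day and dissected tissue change together in this comparison, which shares its pro-HSC/HPC libraries with that of pre-HSC II below. The lost regions lay lower in pre-HSC I as a group, but few passed the test. The median over the regions was 4.90, 8.56, 8.62 and 6.70 CPM in pre-HSC I libraries 1 to 4, against 11.5, 11.5 and 8.93 CPM in pro-HSC/HPC. Every pre-HSC I library lay below every pro-HSC/HPC library, while the medians of the set of like level were 22.8 to 24.4 CPM in pre-HSC I and 23.1 to 24.3 CPM in pro-HSC/HPC.

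Of the 347 regions, 0 were higher and 2 lower in pre-HSC I, against a background of 0.00745% of all peaks tested higher and 0.00894% lower, 0.0164% in all (edgeR quasi-likelihood test, adjusted p at 0.05). An unadjusted p under 0.05 by edgeR was found at 117 regions. It was found at 5354 of all 67131 peaks tested and at 1587 of the 19151 peaks of the set of like level. The median log2 fold change of pre-HSC I over pro-HSC/HPC was -0.75 for the lost regions, 0.03 for the set of like level and -0.02 for all peaks tested. The fold change was negative at 86.7% of the lost regions, 46.6% of the set of like level and 51.5% of all peaks tested. The pro-HSC/HPC mean was at least 2 times the pre-HSC I mean at 121 regions (34.9%, against 3.88% in the set of like level), and the reverse held at 5 (1.44%, against 1.95%). A mean of at least 8 CPM was left at 145 regions in pre-HSC I (41.8%, against 87.7% in the set of like level). In pro-HSC/HPC it was found at 225 (64.8%, against 89.6%). The median in pro-HSC/HPC was 10.8 CPM for the lost regions and 23.9 CPM for that set. Ratios of the lost regions thus rest on fewer counts.

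The region chr1:196926496-196927655, 1159 bp wide, had 9.80, 19.5, 21.5 and 13.4 CPM in pre-HSC I, against 82.1, 70.6 and 43.0 CPM in pro-HSC/HPC. It fell by 2.14 ± 0.34 on the log2 scale (SE, adjusted p = 0.00194 by edgeR). The region chr17:68373504-68374556 had 2.45, 1.90, 2.87 and 4.88 CPM in pre-HSC I, against 29.9, 28.2 and 17.0 CPM in pro-HSC/HPC. It fell by 2.97 ± 0.55 on the log2 scale (SE, adjusted p = 0.0208 by edgeR), and all libraries of the later group lay under those of the earlier one in both regions. It was also among the regions higher in E8.5 HE than in E8.5 EC, with means of 22.3 ± 3.30 CPM in HE and 6.58 ± 1.80 CPM in EC (SD, n = 4 each, adjusted p = 0.0146 by edgeR).

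Both calls were lost without pre-HSC I library 1, without pre-HSC I library 4, without pro-HSC/HPC library 1 and after thinning, and that of chr17:68373504-68374556 also without pro-HSC/HPC library 2. Without the near-identical pair (pre-HSC I libraries 2 and 3) 17 regions were lower, and without pro-HSC/HPC library 3 there were 4. With the pair kept apart 9 were lower, and DESeq2 called 26 lower and 0 higher. Shares of all peaks called were not computed for these fits. The median was negative in each of these fits, between -1.04 and -0.62 when libraries were left out. The pair itself stood highest of the pre-HSC I libraries over the regions.

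By mean CPM, the extremes of pre-HSC I over pro-HSC/HPC were 3.64 at chr2:170073148-170073977, 2.85 at chr8:110758113-110758711 and 2.39 at chr3:108589482-108589946. The first of these averaged 8.72 ± 9.83 CPM in pre-HSC I, against 2.39 ± 0.276 CPM in pro-HSC/HPC (n = 3 each, SD), a difference smaller than the spread within pre-HSC I. At the low end were chr7:26198382-26198979 at 0.110, chr17:68373504-68374556 at 0.129 and chr19:36302025-36303727 at 0.136. Region chr7:26198382-26198979 averaged 0.567 ± 0.617 CPM in pre-HSC I, against 5.16 ± 2.76 CPM in pro-HSC/HPC (n = 3 each, SD). The pre-HSC I level of this region is at most a few counts per library.

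Pre-HSC II of E10.5, set against the same pro-HSC/HPC libraries, showed lower values at many of the regions. Of the 347, 1 was higher and 80 lower in pre-HSC II, which is 23.1% lower, against a background of 0.792% of all peaks tested higher and 4.62% lower and beside 11.6% lower in the set of like level. The median log2 fold change was -0.88 for the lost regions, -0.43 for the set of like level and -0.18 for all peaks tested. The median of all peaks depended on the scaling. Against TMM it was 0.23 higher with RLE size factors and 0.24 higher with total counts, and relative to it the lost regions stood at -0.70, -0.70 and -0.69 under the 3 scalings. The median over the regions was 4.38, 7.47, 5.70 and 6.45 CPM in pre-HSC II, against 11.5, 11.5 and 8.93 CPM in pro-HSC/HPC, and 28 to 95 of the regions had 0 counts in a pre-HSC II library.

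Region chr1:196926496-196927655 had 21.9, 14.9, 8.56 and 16.1 CPM in pre-HSC II, against 82.1, 70.6 and 43.0 CPM in pro-HSC/HPC. Region chr13:49488687-49489597 had 4.38, 11.96, 5.70 and 12.1 CPM in pre-HSC II, against 62.5, 46.3 and 36.5 CPM in pro-HSC/HPC. Region chr5:50266832-50268084 had 13.1, 19.4, 12.8 and 9.67 CPM in pre-HSC II, against 65.3, 56.0 and 46.3 CPM in pro-HSC/HPC. In these 3 and in chr9:115669349-115670471, the fourth by adjusted p, no pre-HSC II library reached the lowest pro-HSC/HPC library. The log2 fold changes of the 4 were -2.38 ± 0.34, -2.66 ± 0.38, -2.32 ± 0.34 and -2.39 ± 0.36 (SE), with adjusted p of 6.67e-06, 6.67e-06, 1.12e-05 and 1.57e-05 by edgeR, and all 4 were called under each of 15 alternatives. The region that rose, chr3:133289404-133290584, had 39.4, 41.9, 17.1 and 3.22 CPM in pre-HSC II, against 6.82, 5.29 and 6.49 CPM in pro-HSC/HPC. Its groups overlapped through pre-HSC II library 4, and its call (1.64 ± 0.48 on the log2 scale, SE, with an adjusted p of 0.0284 by edgeR) was lost in 6 of 15 alternatives, with an adjusted p of 0.00198 to 0.186.

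The count varied between fits. With only the 2 groups in the fit 223 of the regions passed the count filter and 23 were called, 22 of them lower, and after thinning 284 passed and 34 were called, 33 of them lower. Leaving out 1 library gave 60 to 87. No share of all peaks called was computed for these fits.

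Within E10.5, pre-HSC II was compared with pre-HSC I, where tissue and day are the same. The lost regions did not share a direction here. Of the 347, 6 were higher and 20 lower in pre-HSC II, against a background of 0.84% of all peaks tested higher and 4.09% lower (4.93% in all), and beside 0.386% and 11% in the set of like level. With RLE size factors 11 were higher and 11 lower, with total counts 10 and 11, and with DESeq2 22 and 13, each without a computed background. The median log2 fold change was -0.21 for the lost regions (0.0551 with RLE size factors and 0.0566 with total counts), -0.45 for the set of like level and -0.16 for all peaks tested, so that the lost regions stood 0.24 above the set of like level. Relative to the median of all peaks tested, they stood at -0.05 with TMM, -0.05 with RLE size factors and -0.04 with total counts, on the log2 scale. With only these 2 groups in the fit 183 regions passed the filter and 3 were called, 1 higher and 2 lower, and without pre-HSC I library 1 there were 15, 1 higher and 14 lower.

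The region with the smallest adjusted p among the higher ones, chr18:82703625-82705100, had 50.4, 26.9, 17.1 and 12.9 CPM in pre-HSC II, against 1.84, 6.18, 6.22 and 3.05 CPM in pre-HSC I. The groups did not overlap, and it rose by 2.41 ± 0.47 on the log2 scale (SE, adjusted p = 0.000935 by edgeR, called in each of 16 alternatives). It had 3.29 to 7.70 CPM in E10.5 HE and 8.03 to 16.6 CPM in E10.5 EC. Regions chr1:167542103-167543360, chr2:173609718-173610952 and chr10:37698655-37699354 rose by 2.15 ± 0.51, 2.05 ± 0.53 and 2.11 ± 0.58 (log2, SE), and each lost its call in 3 or 4 of 16 alternatives, among them the fit without pre-HSC I library 1.

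Among the lower regions, chr3:19529682-19530805 had 8.76, 2.99, 0 and 6.45 CPM in pre-HSC II, against 22.05, 22.8, 22.02 and 28.0 CPM in pre-HSC I (-2.65 ± 0.45 on the log2 scale, SE, with an adjusted p of 0.000125 by edgeR). At chr2:130974003-130974766 the 4 pre-HSC II libraries had 0 counts, against 12, 13, 13 and 8 counts in pre-HSC I. With a floor of 3 counts over the group it was 6.29-fold lower, with the near-identical pre-HSC I pair taken as 1 sample (adjusted p = 0.00078 by edgeR). The floor covers counting error of the 0 counts only, and that of the pre-HSC I counts was not taken in. In E10.5 HE it had 1.65, 12.2, 7.86 and 11.8 CPM. Region chr17:29602255-29602920 also had 0 counts in all pre-HSC II libraries, against 8, 14, 18 and 7 counts in pre-HSC I. By the same floor, with the same limit, it was 5.90-fold lower. Region chr5:50266832-50268084, named above against pro-HSC/HPC, had 13.1, 19.4, 12.8 and 9.67 CPM in pre-HSC II, against 52.7, 31.9, 34.5 and 24.4 CPM in pre-HSC I, and lost this call with only the 2 groups in the fit.

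**Figure D4:**
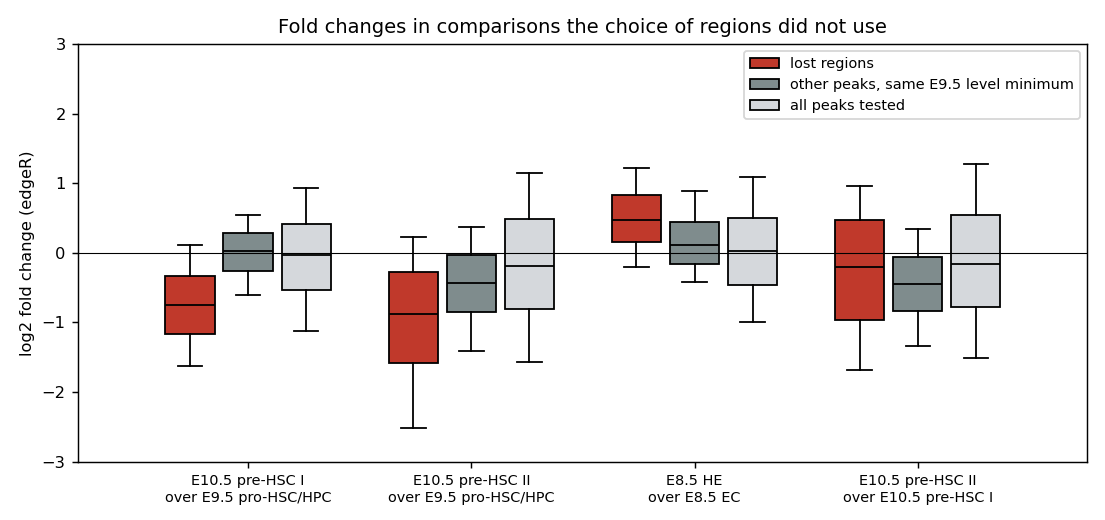
log2 fold changes by edgeR in 4 comparisons that the choice of regions did not use. Red marks the 347 lost regions, dark grey the 19151 other peaks with the same E9.5 minimum and light grey all 67131 peaks tested. Boxes run from the 25th to the 75th percentile with the median as a line, and whiskers from the 10th to the 90th. The lost regions lie lowest in both comparisons with pro-HSC/HPC and highest in E8.5 HE over EC.

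The lost regions were found on all autosomes. As a share of the peaks with the E9.5 level, they were most frequent on chromosome 18, at 3.19% (20 of 626), chromosome 3, at 2.90% (30 of 1034), and chromosome 13, at 2.75% (25 of 908), and least frequent on chromosome 15, at 0.749% (6 of 801), and chromosome 11, at 0.905% (13 of 1437). Their width ran from 324 to 4241 bp around a median of 951 bp, beside a median of 1140 bp in the set of like level, and 12 of them (3.46%) were 2000 bp or wider, against 11.2%. Per kb of width their E9.5 level had a median of 21.8 CPM, beside 23.1 CPM in the set of like level.

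Some of them lay close together. With a gap of at most 100000 bp, 287 stood alone, 20 pairs formed, 5 runs had 3 members and 1 run had 5. Such runs were not computed for other peaks, so whether this closeness is particular to the lost regions was not tested. The run of 5, chr13:21939746-22086711, held 17 peaks with the E9.5 level, of which 5 were lost. Its members averaged 14.6 CPM in E10.5 HE and 33.2 CPM in E9.5 HE, and 26.2 CPM in E10.5 EC and 60.3 CPM in E9.5 EC. Another run on the same chromosome, chr13:23360785-23401208, had 3 lost regions among 5 such peaks. In chr14:115256306-115275026 and chr19:36302025-36365933, all 3 peaks with the E9.5 level were lost. In the chr19 run the members averaged 48.3, 13.0 and 4.03 CPM in HE and 41.6, 21.97 and 7.58 CPM in EC of E8.5, E9.5 and E10.5. The other runs of 3 were chr2:169985381-170073977 and chr3:148425106-148507610, each among 6 such peaks.

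Peaks near the lost regions that did not meet the rule themselves were also lower at E10.5. Of the set of like level, 83 peaks lay within 5000 bp of a lost region, and their median log2 ratio of E10.5 to E9.5 was -0.48 in HE and -0.34 in EC, with 71.1% lower in both. From 20000 to 100000 bp away, 911 peaks had medians of -0.24 in HE and -0.19 in EC, and beyond 500000 bp 15217 peaks had medians of -0.01 and 0.04, with 34.3% lower in both. Over the whole set 37.0% were lower in both. Since peaks past 2-fold in both populations were taken out as lost regions, and neighbours share libraries and position, these values are given as a description.

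**Figure D5:**
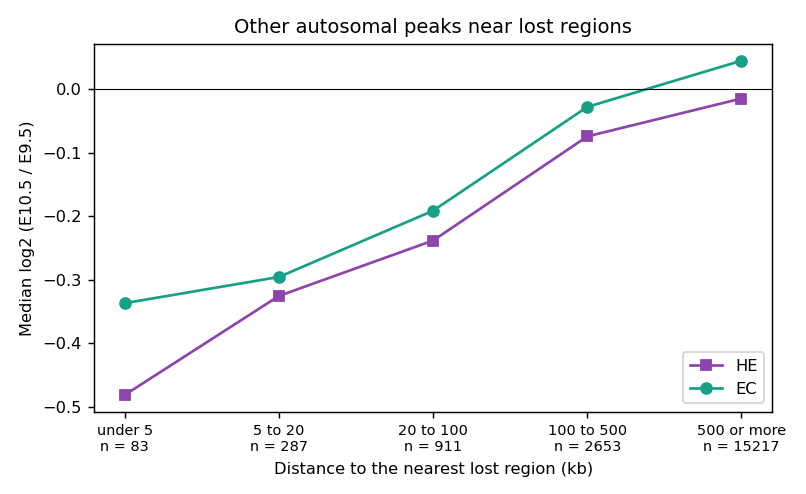
Median log2 ratio of E10.5 to E9.5 mean CPM in HE (squares) and EC (circles) of the other autosomal peaks with the E9.5 minimum, by distance in kb to the nearest lost region; n is the number of peaks in each bin. The medians are lowest, at -0.48 in HE and -0.34 in EC, within 5 kb, and near 0 beyond 500 kb.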

How the data were processed

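The values used are raw counts in whole reads for 76018 peaks in 35 ATAC-seq libraries, as the authors deposited them. Per the submitters' processing notes, DiffBind 1.14.6, MACS2 2.0.1, Bowtie 1.0.0, deepTools, Trim Galore 0.3.1, bedtools 2.17.0 and SAMtools were used on build mm9. Settings, read filters, any shift of reads to the cut site and the counting are not given in the sources used. The labels give 13 PCR cycles, and name no molecular identifiers, so floors cover only the counting error of the 0 counts.

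Groups were taken from sample titles. For pre-HSC I, libraries 2 and 3 were averaged and rounded, which left 34 samples. Regions were chosen from CPM by column sum, as the report states, and the regions, lists and tests were chosen with earlier results of these data known. In Python 3.11.15 (pandas 2.3.3, numpy 2.4.6, matplotlib 3.10.9) levels were given as CPM by column sum, with SD over samples. Counts were tested in R 4.3.3 by two-sided quasi-likelihood tests of edgeR 4.0.16 (glmQLFit, glmQLFTest) with TMM scaling, in 1 fit of the 34 samples by group. The filter filterByExpr by group kept 67131 peaks and removed 8887. p-values were adjusted over all peaks tested by Benjamini-Hochberg, with calls at 0.05. SEs were taken as the absolute log2 fold change over the root of the F statistic. The fit had 25 residual df and a common dispersion of 0.147. It was also run on counts simulated with that same dispersion at every peak, a setting simpler than these data. The outcome of that run is not used here.

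Contrasts that the rule used, E9.5 against E8.5, and HE against EC at E9.5 and E10.5, were not tested. Regions named are the 6 of highest E9.5 level, the 6 of largest smaller ratio, the 4 of smallest adjusted p per comparison and direction, those nearest each threshold, the 3 highest and 3 lowest by E8.5 over E9.5 and by pre-HSC I over pro-HSC/HPC, and runs of 3 or more. Alternatives were other thresholds and means for the rule, RLE size factors, total counts, DESeq2 1.42.0, no count filter, only the groups compared, a replicate block, and leaving out each library. Leaving out the shallow E8.5 libraries and thinning to 456770 counts were chosen after seeing the data.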

Additional observations from a re-analysis of the deposited data

Results flagged for a closer look

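The difference between HE and EC had opposite signs on neighbouring days. The mean of the library medians over the 347 lost regions was 4.85 CPM higher in HE than in EC at E8.5, and the same difference was -7.78 CPM at E9.5. The difference between days was not tested, and E9.5 values chose the regions. The 2 HE libraries with the highest medians at E8.5 were the shallow ones.

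Of 91 groups of 4 libraries examined at the named regions, 3 had a library far from the others, and chance flags about 1 in 20 groups. Region chr15:25485594-25486310 had 19.5 CPM in E9.5 EC library 1, above a group median of 13.8 CPM. Region chr1:71982882-71983946 had 27.6 CPM in the same library, below a group median of 35.9 CPM. Region chr8:8037807-8038475 had 1.61 CPM in pre-HSC II library 4, the deepest of that group, and 0 counts in the other 3.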

How the results depend on the processing

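The rule gave 664 and 148 regions with minima of 4 and 16 CPM and 1432 and 36 with ratios of 1.5 and 3, and 283 (without E10.5 EC library 1) to 446 (without E10.5 EC library 2) with 1 library left out, of which 256 to 339 were among the 347. TMM-scaled CPM gave 419 (340 shared) and group medians 367 (260 shared).

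For pre-HSC I against pro-HSC/HPC the 2 calls became 9 with the merged pair kept apart, 26 by DESeq2 and 0 after thinning. They became 0 to 17 with 1 library, or the merged pair, left out. For pre-HSC II against pro-HSC/HPC the 81 calls became 23 with only the 2 groups in the fit and 34 after thinning, where fewer regions were tested, and 60 to 87 with 1 library left out. For E8.5 HE against EC the 26 calls became 63 with only the 2 groups, 53 by DESeq2, 9 after thinning, 1 without the 4 shallow libraries and 11 to 18 with 1 library left out. For pre-HSC II against pre-HSC I the 26 calls became 3 with only the 2 groups and 16 after thinning (10 higher, 6 lower). They became 15 to 30 with 1 library, or the merged pair, left out. Why the counts moved was not tested beyond the numbers of samples and regions given. Counts under alternatives have no share of all peaks beside them, which was computed for the main fit only.

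The median log2 fold change kept its sign in the first 3 comparisons under every alternative run, at -1.04 to -0.62, -1.05 to -0.53 and 0.24 to 0.51. For pre-HSC II against pre-HSC I it was -0.35 to 0.12 with 1 library, or the near-identical pair, left out. It turned to 0.0551 with RLE size factors, 0.0566 with total counts, 0.0607 by DESeq2 and 0.24 with only the 2 groups. It was 0.12 without the near-identical pair (pre-HSC I libraries 2 and 3) and 0.18 after thinning, and the cause was not tested. Of the named regions' tests under alternatives, 268 kept their call and 31 lost it, all in the same direction. With the replicate number as a block the 4 comparisons had 2, 84, 28 and 32 calls. Over all peaks kept, deviations from group means correlated at -0.02 to 0.089 between same-numbered libraries of the groups compared. E10.5 EC and HE were not examined in this way. Over the lost regions, library 1 had the lowest median in every E10.5 group, at 7.56 CPM in EC, 3.29 in HE, 4.90 in pre-HSC I and 4.38 in pre-HSC II. At the chromosome X peak library 4 was the highest in each, at 354, 981, 517 and 585 CPM. Whether same-numbered libraries share more than a number was not tested. In the shallowest pre-HSC II library 8 CPM is 3.65 counts, so values there of regions near that level rest on few counts and differences can be missed.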

Other observations

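Chromosome X was left out by the rule. Of its 556 peaks with 8 CPM or more in E9.5 EC and HE, 8 met both 2-fold thresholds, and of the 10 peaks of chromosome Y 0 did.

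Chromosome 13 held 10 lost regions, among 63 peaks with the E9.5 level, in a window of about 2 Mb, chr13:21340802-23505625, which was picked after its values were seen and carries no test. At all 10, HE was below EC at E9.5. Of the 10, 5 were 2000 bp or wider, out of 12 such lost regions in all, and the others were narrower. The window included 2 of the 6 regions with the highest E9.5 level. The median over the 10 regions was 51.5 ± 4.24, 21.8 ± 6.02 and 9.86 ± 2.19 CPM in HE of E8.5, E9.5 and E10.5 (SD, n = 4 each), and 36.8 ± 9.30, 48.4 ± 4.69 and 19.8 ± 1.42 CPM in EC of the same days. It was 20.9 ± 3.55 CPM in pre-HSC II (SD, n = 4), 14.4 ± 4.76 CPM in the 3 pre-HSC I samples and 29.2 ± 6.999 CPM in the 3 pro-HSC/HPC samples (SD). E10.5 HE was the lowest of these groups, with libraries at 7.40 to 12.4 CPM. No pre-HSC II library, at 15.7 to 23.5 CPM, reached down to it, but the rule favours low E10.5 HE values.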
